A study of Mus musculus with 8 samples.

Results

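Genes used to mark the wall cells of blood vessels, and the ligand gene Pdgfb, were followed in RNA-seq of mouse heart ventricles at embryonic day 15.5 (E15.5). They are 10 of the 53465 genes in the deposited gene table, chosen by name as smooth muscle and pericyte genes, with earlier results of these data known. The contractile genes Acta2, Tagln, Myh11, Cnn1 and Smtn make up 5 of them, the pericyte genes Rgs5, Pdgfrb, Cspg4 and Abcc9 another 4, and the ligand gene Pdgfb is the last. All 10 had enough reads to be tested among 15388 genes.

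The study compared 4 WT libraries with 4 libraries labelled Nrg-1flox;Cdh5-CreERT2, each from 1 ventricle by the submitters' account, to ask what deletion of neuregulin-1 does to the heart. Cdh5-CreERT2 is a tamoxifen-inducible Cre recombinase driven by the promoter of an endothelial cadherin gene, so recombination is directed at endothelial cells. Neither the time and dose of tamoxifen, nor whether WT embryos carried an allele or received the drug, is given in the sources used here. Because the labels say nothing of litters, p-values measure the spread between these libraries.

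Mural cells wrap the endothelial tube. Smooth muscle cells form the contractile coat of arteries, pericytes sit on capillaries, and both are drawn to new vessels by PDGF-B that endothelial cells release and that PDGFRB on the mural cell receives. In the embryonic heart several smooth muscle genes, Acta2 and Tagln among them, are also transcribed for a time by cardiomyocytes themselves, whereas Myh11, the smooth muscle myosin heavy chain, is held to be the more restricted marker.

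Reads were 60 bases long, so a read can tell Acta2 from its close relatives only where their sequences differ. The stretch of coding sequence printed here is a 60-base window in which Acta2 and the cardiac actin gene Actc1 are most alike. Bases that differ from Acta2 are in capitals, positions count from the A of the start codon, and the sequences are those of the longest open reading frame of the GENCODE M21 transcripts on GRCm38.
Acta2, coding bases 748 to 807: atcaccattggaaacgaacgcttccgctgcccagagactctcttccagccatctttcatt
Actc1, coding bases 748 to 807: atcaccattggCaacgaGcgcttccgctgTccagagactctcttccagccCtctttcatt
Actg2, coding bases 745 to 804: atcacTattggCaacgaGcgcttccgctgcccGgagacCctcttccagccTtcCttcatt
Actc1 differed from Acta2 at 4 bases of this window and the enteric smooth muscle actin Actg2 at 7. None of the 1075 coding windows of Acta2 came within 2 mismatches of Actc1, Acta1, Actg2 or Actb. Of the cytoplasmic actin Actg1, 18 windows (1.67%) did. For Myh11, 96 of 5881 windows (1.63%) came within 2 mismatches of the non-muscle myosin gene Myh9.

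The CArG box is the site of serum response factor, which drives many smooth muscle genes. It was searched in promoters taken from RefSeq on GRCm38.p6, running from 250 bases before to 50 bases after the start site, as a C pair and a G pair around 6 bases that are all A or T, or with 1 of the 6 being C or G. The motif reads the same on both strands. Of 32851 promoters, 1.63% held the exact form, 8.5% held the form with 1 other base and 9.98% held either. Promoters were at hand for 6 of the 10 genes. Those of Acta2 and Rgs5 are shown because the intervals of these genes, given further on, lay on opposite sides of 0. Capitals mark the matches.
Acta2, chr19:34255324-34255623, minus strand: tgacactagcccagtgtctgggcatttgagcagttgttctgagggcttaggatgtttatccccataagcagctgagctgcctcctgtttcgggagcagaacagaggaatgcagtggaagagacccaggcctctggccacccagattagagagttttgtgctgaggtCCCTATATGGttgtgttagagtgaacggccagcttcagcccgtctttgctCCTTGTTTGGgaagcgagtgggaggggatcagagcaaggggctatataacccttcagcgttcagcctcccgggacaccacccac
Rgs5, chr1:169655251-169655550, plus strand: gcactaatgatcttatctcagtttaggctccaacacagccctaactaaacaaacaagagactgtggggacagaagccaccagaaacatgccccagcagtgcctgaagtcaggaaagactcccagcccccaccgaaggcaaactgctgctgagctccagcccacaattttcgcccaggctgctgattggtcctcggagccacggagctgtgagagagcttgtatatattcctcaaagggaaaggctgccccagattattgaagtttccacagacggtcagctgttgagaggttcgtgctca
Acta2 held 2 matches with 1 other base, beginning 84 and 34 bases before the start site, and no exact match. No match of either form lay in the windows of Rgs5, Cnn1, Smtn, Cspg4 and Abcc9, which says only that these letters are not in these windows.

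Library totals ran from 16761763 to 24144272 expected counts, and TMM factors, which correct for differences in composition, from 0.988 to 1.01. Levels are CPM, a gene's counts relative to the total of its library after this scaling. Nrg1 itself (ENSMUSG00000062991, chromosome 8, 31814551 to 32884029) had levels of 5.46, 4.64, 4.08 and 5.31 CPM across WT libraries 1 to 4, against 6.82, 6.33, 6.16 and 5.36 CPM across the libraries labelled as mutant. The targeted gene was thus not lower in the latter (log2 fold change 0.34, 95% interval 0.08 to 0.60, FDR 0.311 by edgeR's quasi-likelihood test), and they are called the labelled-mutant libraries throughout. Directions refer to that label. Reads of both Xist and Y-linked genes (each above 20 counts) were present in 7 of the 8 libraries. Since tissue of 1 embryo would be rich in one or the other, this calls into question that each library holds 1 embryo, and what n = 4 counts is uncertain to that extent. Summed Y-linked levels were 115, 69.3, 122 and 171 CPM across the WT group, against 68.3, 42.9, 58.5 and 120 CPM across the labelled-mutant group. Xist was at 134, 206, 140 and 0.176 CPM across the WT group, against 327, 282, 263 and 103 CPM across the labelled-mutant group. The groups overlapped in both measures. On average the labelled-mutant group held more Xist and fewer Y-linked reads, so the mix of sexes was not matched between the labels. The ventricular genes Myl2, Irx4 and Hey2 were present in every library.

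None of the 10 genes passed the test between the groups (edgeR's quasi-likelihood test, FDR under 0.05), against 81 of 15388 genes or 0.526% of all tested. At an unadjusted p under 0.05 there were 4, Acta2, Rgs5, Pdgfrb and Abcc9, where 10.5% of all genes lay. No member's 4 WT values stood wholly apart from its 4 labelled-mutant values, which 6.05% of all genes did. The estimates of 8 of the 10 were below 0, and 50.6% of all genes were. DESeq2 called Acta2 alone (adjusted p = 0.0369), and edgeR without a filter on low counts called Rgs5 alone (FDR 0.00422).

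**Figure D1:**
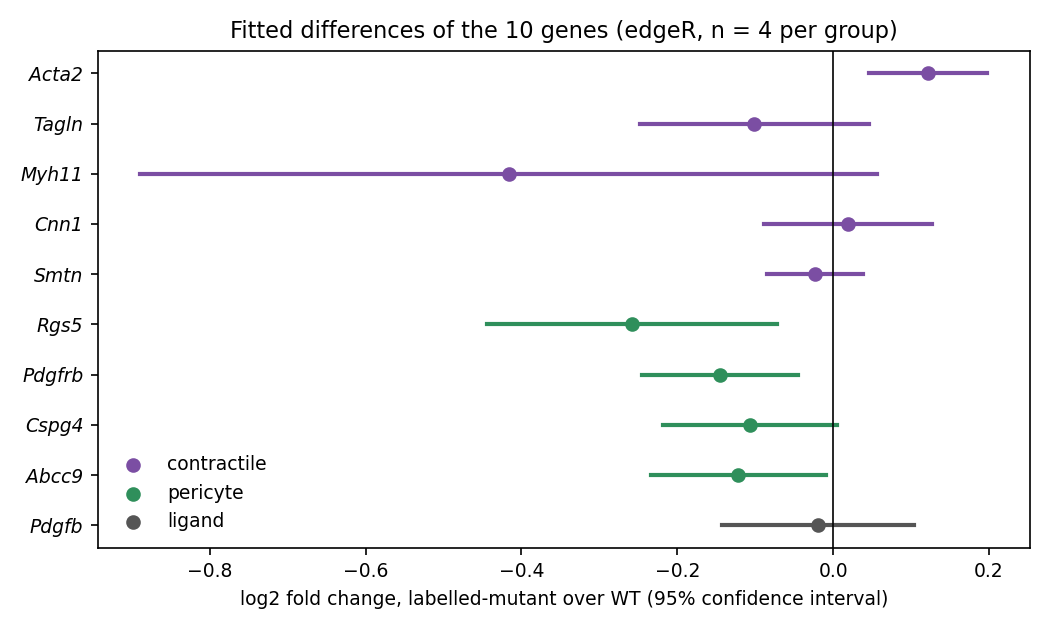
Log2 fold change of each member, labelled-mutant over WT, with its 95% interval from edgeR's quasi-likelihood fit; the line at 0 is no difference. The interval of Acta2 lies above 0, those of Rgs5, Pdgfrb and Abcc9 lie below it, and that of Myh11 is the widest.

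Acta2 encodes smooth muscle alpha-actin, the thin filament protein of the contractile coat (ENSMUSG00000035783, chromosome 19, 34241090 to 34255590, minus strand, GRCm38). It stood at 1361, 1283, 1330.0 and 1257 CPM in WT libraries 1 to 4 and at 1472, 1459, 1413 and 1349 CPM in labelled-mutant libraries 1 to 4. Labelled-mutant libraries 1, 2 and 3 lay above every WT library and library 4 did not, an arrangement (any 3 of the 4) that 7.39% of all genes had. The means were 1308 ± 46.8 and 1423 ± 55.4 CPM (SD, n = 4 each), a log2 fold change of 0.12 with an interval of 0.046 to 0.20 and an FDR of 0.184.

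Tagln, coding for the actin-binding protein transgelin or SM22 alpha, lies on chromosome 9 (ENSMUSG00000032085, 45929619 to 45936058). Its level was 84.0, 93.0, 75.6 and 82.5 CPM across the WT group, against 75.4, 75.9, 72.3 and 89.5 CPM across the labelled-mutant group. The groups overlapped, since WT library 3 was as low as most labelled-mutant libraries and labelled-mutant library 4 was above 3 of the 4 WT libraries. The log2 fold change was -0.10 (interval -0.25 to 0.05, FDR 0.654). It was -0.047 without WT library 2, -0.065 without labelled-mutant library 3 and -0.17 without labelled-mutant library 4. Exons of Pcsk7 and Gm48529 on the other strand share bases with Tagln, the second over 1241 of its 1988 exonic bases. Gm48529 held 1.54 CPM on average in WT and 1.56 CPM in the labelled-mutant group, small beside Tagln. Pcsk7, which shares 108 of the bases, held more, 29.2 CPM on average in WT and 28.4 CPM in the labelled-mutant group.

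Cnn1 and Smtn code for calponin and smoothelin, which bind actin in contractile smooth muscle. Cnn1 (ENSMUSG00000001349, chromosome 9, 22099216 to 22109630) was at 202, 209.8, 184 and 209.5 CPM across the WT group, against 207, 204, 189 and 218 CPM across the labelled-mutant group. Smtn (ENSMUSG00000020439, chromosome 11, 3517523 to 3540612) was at 98.4, 96.2, 100.3 and 96.2 CPM across the WT group, against 96.6, 94.2, 97.5 and 96.6 CPM across the labelled-mutant group. For both genes the groups overlapped over most of their range. Their log2 fold changes were 0.02 (interval -0.09 to 0.13, FDR 0.944) and -0.02 (interval -0.08 to 0.04, FDR 0.851). Leaving out single libraries moved them from -0.020 to 0.056 and from -0.031 to -0.0093.

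Myh11 (ENSMUSG00000018830, chromosome 16, 14194535 to 14291372) was the contractile gene with the lowest level and the largest spread. It was at 5.97, 4.28, 10.5 and 8.48 CPM across the WT group, against 5.21, 5.91, 4.94 and 5.89 CPM across the labelled-mutant group, from 97.3 to 242 counts a library. WT libraries 3 and 4 were far above the rest, WT library 2 was the lowest of all 8, and the labelled-mutant libraries were close together. The coefficient of variation was 37.5% over WT and 8.90% over labelled-mutant libraries, where counting alone gives 8.48% at its mean count. The log2 fold change was -0.42 with an interval of -0.89 to 0.06 (FDR 0.55), and -0.19 without WT library 3. In bulk tissue fewer cells of a type and less RNA per cell cannot be told apart, here or in what follows.

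**Figure D2:**
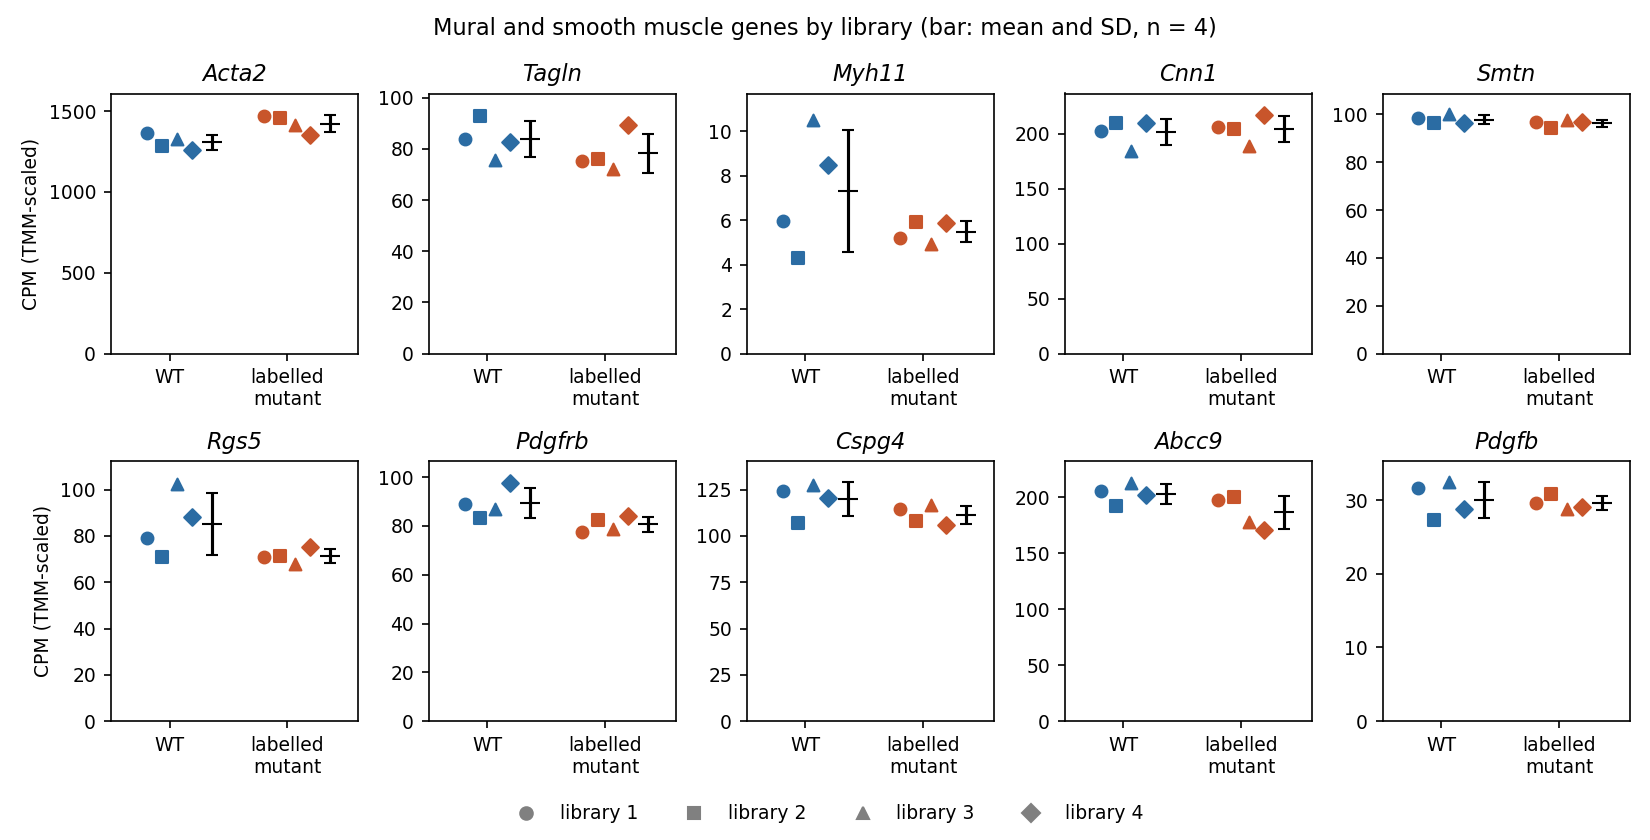
CPM of each of the 10 genes in each library, with WT and labelled-mutant libraries side by side, a marker shape for each library number and bars for the group mean and SD (n = 4). Points of the groups overlap in all 10 panels, and the WT points of Myh11 and Rgs5 are spread more widely than their labelled-mutant points.

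The 4 pericyte genes had estimates below 0, with a median log2 fold change of -0.13 beside -0.023 for the 5 contractile genes and -0.0012 for all tested genes. Rgs5, a regulator of G protein signalling abundant in pericytes (ENSMUSG00000026678, chromosome 1, 169655501 to 169695813), was at 79.2, 70.9, 102 and 88.2 CPM across the WT group, against 71.0, 71.2, 67.9 and 75.2 CPM across the labelled-mutant group. WT libraries 1, 3 and 4 were above every labelled-mutant library, and WT library 2 was among them. The means were 85.2 ± 13.4 and 71.3 ± 3.02 CPM (SD, n = 4 each), with a log2 fold change of -0.26 (interval -0.44 to -0.07, FDR 0.282) and of -0.16 without WT library 3.

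Pdgfrb, the receptor of PDGF-B (ENSMUSG00000024620, chromosome 18, 61045150 to 61085061), was at 89.0, 83.2, 87.1 and 97.7 CPM across the WT group, against 77.5, 82.3, 78.96 and 84.2 CPM across the labelled-mutant group. The overlap came from WT library 2 alone, which was below labelled-mutant library 4. Its log2 fold change was -0.15 (interval -0.25 to -0.045, FDR 0.254).

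Cspg4 codes for the NG2 proteoglycan of the pericyte surface (ENSMUSG00000032911, chromosome 9, 56865033 to 56899870). It was at 124, 107, 128 and 121 CPM across the WT group, against 114, 108, 117 and 106 CPM across the labelled-mutant group, again with WT library 2 alone inside the labelled-mutant values. The log2 fold change was -0.11 (interval -0.22 to 0.01, FDR 0.504), and -0.073 without WT library 3.

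Abcc9 codes for SUR2, the regulatory subunit of ATP-sensitive potassium channels in pericytes and also in heart muscle (ENSMUSG00000030249, chromosome 6, 142587862 to 142702315). Levels of 205, 192, 213 and 202 CPM across the WT group stood against 197, 200.1, 178 and 171 CPM across the labelled-mutant group. Labelled-mutant libraries 3 and 4 were the lowest. Its log2 fold change was -0.12 (interval -0.23 to -0.01, FDR 0.429). A channel pore partner of SUR2, Kcnj8, was at 18.2 to 19.8 CPM across the WT group, against 15.7 to 17.0 CPM across the labelled-mutant group. The groups did not overlap (log2 fold change -0.24, FDR 0.0867). Kcnj8 was picked out after its values were seen.

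Pdgfb, the endothelial ligand (ENSMUSG00000000489, chromosome 15, 79995874 to 80014977), was at 31.6, 27.2, 32.4 and 28.8 CPM across the WT group, against 29.6, 30.9, 28.8 and 29.02 CPM across the labelled-mutant group. The labelled-mutant values all lay inside the WT range. The log2 fold change was -0.02 with an interval of -0.14 to 0.10 (FDR 0.951), and its sign turned without WT library 1 or 3.

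The same 3 WT libraries were high in several of these genes. WT libraries 1, 3 and 4 lay above every labelled-mutant library, with WT library 2 not above them, in all 4 pericyte members and in Myh11, an arrangement noticed after the values were seen that 2.08% of all genes had. Of 15 other pericyte genes none had it, though 4 had some 3 of the WT libraries above, as 7.02% of all genes did. In the other lists it was held by Notch3, Myh6, Pecam1, Hey1, Postn, Eln, Mfap5 and the Y-linked Ddx3y. WT library 2 also held the lowest summed Y-linked level of the WT libraries. With that level as a covariate the log2 fold change of Rgs5 was -0.13 (FDR 0.718) and that of Myh11 was -0.10. That of Pdgfrb was -0.073, that of Cspg4 -0.071 and that of Eln -0.29. Among the pericyte members and Myh11, Abcc9 alone moved further down, to -0.16 (FDR 0.465) from -0.12 without the covariate. The Y-linked level was lower on average under the mutant label, so this fit cannot fully part it from the label. The part of the Y-linked level in these values was not tested beyond this fit.

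**Figure D3:**
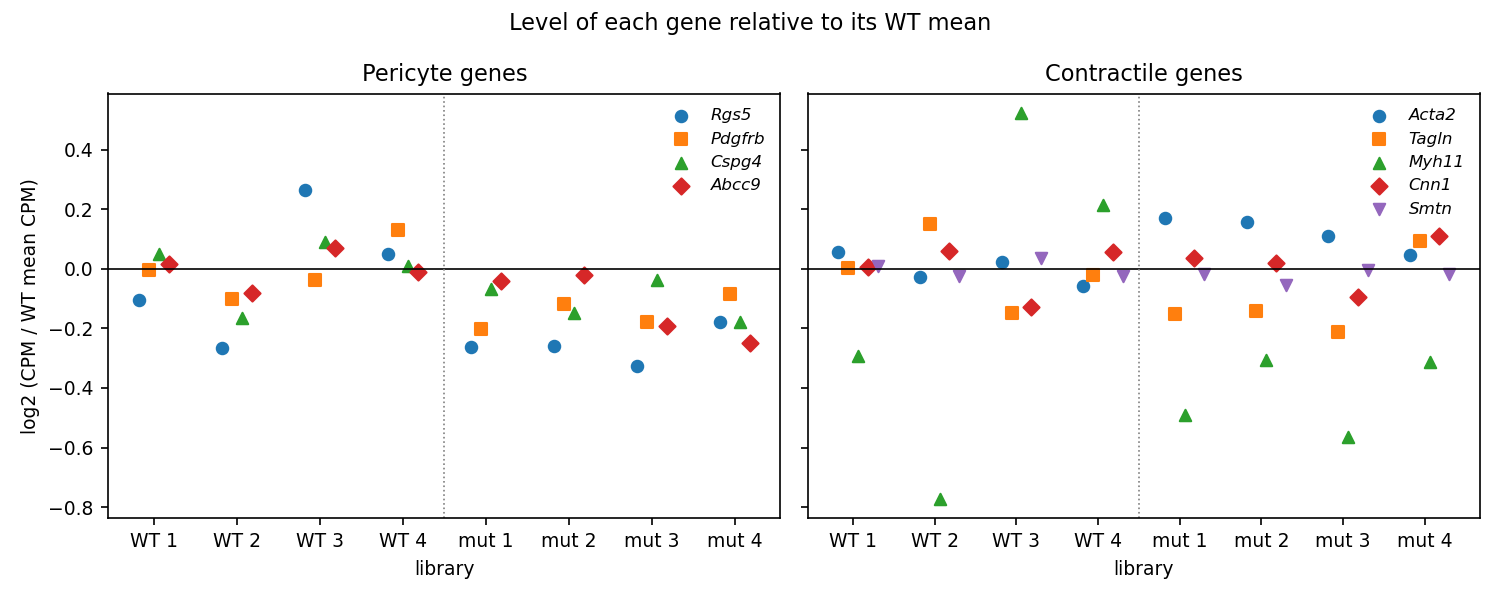
Log2 level of the pericyte members (left) and contractile members (right) in each library, relative to the gene's WT mean; mut stands for labelled-mutant. WT library 2 is low and WT library 3 high for Myh11 and Rgs5, while Smtn stays near 0 throughout.

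After subtraction of group means, Myh11 and Rgs5 varied together over the 8 libraries (Pearson r 0.97), which is given as a description. Tagln and Cnn1 had an r of 0.84, but Myh11 had -0.51 with Tagln, -0.37 with Cnn1 and -0.01 with Acta2. Tagln and Cspg4 were opposed (-0.84). Among 9917 genes with a mean of at least 10 CPM, those most like Myh11 were Ddrgk1 (0.990), Cyth3 (0.978), Rgs5 (0.974), Pak3 (0.965) and Trub1 (0.963). Those most like Rgs5 were Ddrgk1 (0.970), Klf6 (0.957), Adam12 (0.956), Trub1 (0.955) and Hace1 (0.951). All these values come from the same libraries and share their scaling.

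Levels of different genes were set against each other per kilobase of exonic length. In WT ventricles Acta2 stood at 596 ± 21.3 CPM per kb (SD, n = 4), Cnn1 at 73.6, Tagln at 42.1, Abcc9 at 24.2, Smtn at 22.3, Rgs5 at 18.7, Pdgfrb at 16.3, Cspg4 at 10.04, Pdgfb at 7.21 and Myh11 at 0.962 ± 0.361. Rgs5 and Pdgfrb, neighbours in this order, differed by less than the SD of Rgs5, 2.95, and all other neighbours by more than the larger of their SDs. Myh11 was the lowest in every library.

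The contractile genes thus did not keep one level. Acta2 was 619 times Myh11 per kb, 14.1 times Tagln and 8.09 times Cnn1, while Cnn1 was 76.5 times and Tagln 43.8 times Myh11. Myl9, a regulatory light chain of smooth muscle and other cells, was 783 times Myh11. The smooth muscle gene Lmod1, at 0.754 CPM per kb, lay in the range of Myh11, and Actg2, at 2.26, lay above it. Rgs5 was 19.5 times Myh11.

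Cardiomyocyte genes were set beside them, as these are the muscle cells of the ventricle wall. The cardiac actin Actc1 stood at 7057 CPM per kb in WT, 11.8 times Acta2, and the skeletal actin Acta1, also made in fetal heart, at 0.206 times Acta2. Actc1 did not differ between groups beyond its spread (11418 ± 122 and 11370.5 ± 539.8 CPM, SD, n = 4 each). These bulk libraries do not say how much of the Acta2, Tagln or Cnn1 RNA came from mural cells and how much from cardiomyocytes.

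**Figure D4:**
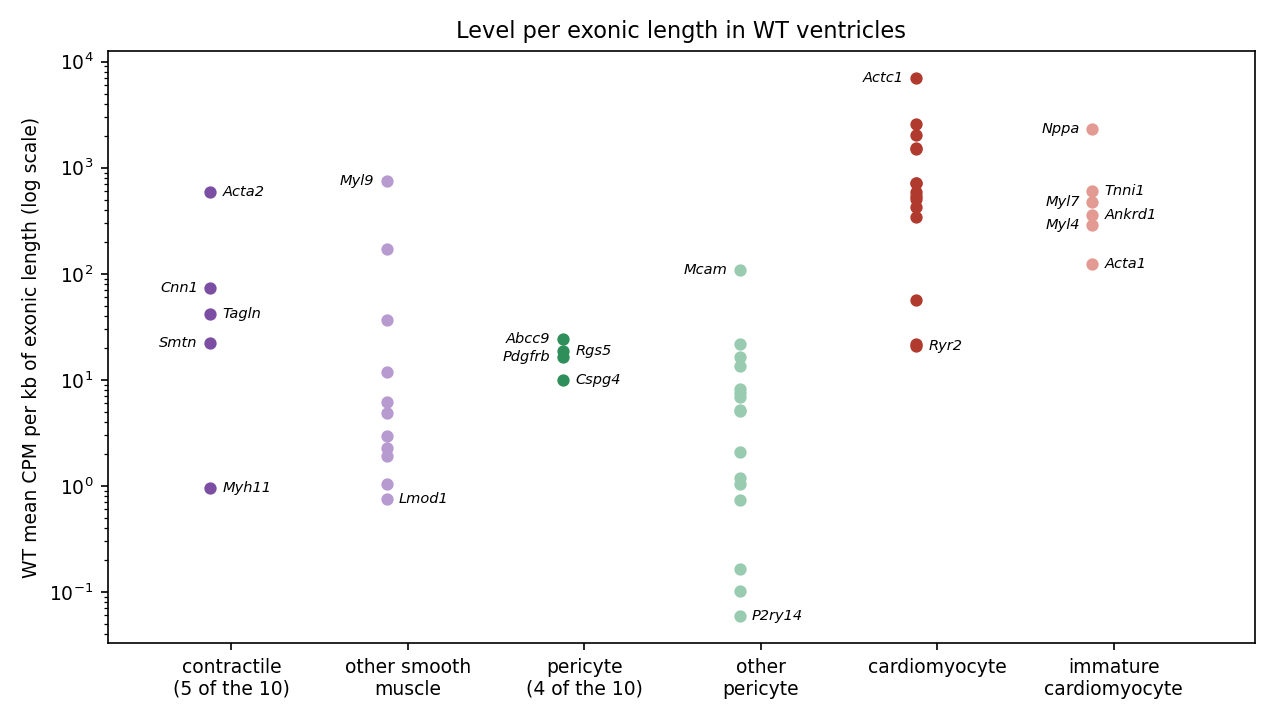
Mean WT level of mural, smooth muscle and cardiomyocyte genes in CPM per kb of exonic length on a log axis, with 1 point for each gene. Acta2 lies at the height of many cardiomyocyte genes, the 4 pericyte members lie close together between 10.04 and 24.2, and Myh11 lies far below the rest of the contractile members.

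The other genes of these programmes were read from lists chosen with earlier results known. Of 11 further smooth muscle contractile genes none passed the test, 10 were below 0 and the median log2 fold change was -0.065. Lmod1, which codes for the smooth muscle leiomodin, had the largest difference. It was at 2.41, 2.61, 3.91 and 2.99 CPM across the WT group, against 0.961, 1.51, 1.45 and 1.94 CPM across the labelled-mutant group. All WT values were above all labelled-mutant values, at a log2 fold change of -1.03 (interval -1.51 to -0.55) and an FDR of 0.064. Lmod1 passed in 4 of 20 alternative analyses. These were without a filter on low counts (FDR 0.00379), with edgeR's likelihood ratio test (0.00312), with DESeq2 (0.00879) and without labelled-mutant library 4 (0.0425). Its estimate was nearest 0, at -0.85, with the Y-linked level as covariate, and its FDR over the alternatives reached 0.346. Lmod1 counts were low, from 19 to 90 a library.

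None of 8 regulators of the smooth muscle programme passed, 6 were below 0 and the median was -0.028. Heyl, a Notch target of mural cells, was at 25.2 to 30.05 CPM across the WT group, against 21.9 to 23.7 CPM across the labelled-mutant group (log2 fold change -0.27, FDR 0.0598). It passed in 3 of 20 alternatives, without the filter (0.00617), with the likelihood ratio test (0.0057) and with DESeq2 (0.0277). With the Y-linked level as covariate its estimate was nearest 0, at -0.18, and its FDR over the alternatives reached 0.382. Of 15 tested pericyte genes outside the members none passed, 13 were below 0 and the median was -0.12; Rgs4 had the largest difference (-0.45, FDR 0.337). Of 7 further PDGF pathway genes none passed, 6 were below 0 and the median was -0.12, with Plau at -0.22 (-0.14 without WT library 2, -0.37 with the Y-linked covariate).

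Signals that recruit mural cells held genes that fell. Of 14, 13 were below 0, the median was -0.13 and 2 passed. Angpt1, the TIE2 ligand that mural cells and heart muscle supply, was at 36.4, 35.6, 30.03 and 31.4 CPM across the WT group, against 22.9, 18.5, 20.2 and 24.2 CPM across the labelled-mutant group. It fell without overlap, by 0.64 on the log2 scale (SE 0.085, FDR 0.0109), and passed in 19 of 20 alternative analyses, the exception being that with the Y-linked level as covariate (FDR 0.0657).

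Cxcr4, the receptor of CXCL12 on arterial endothelium, fell from 12.02 ± 0.596 to 9.25 ± 0.494 CPM (SD, n = 4 each, log2 fold change -0.38, FDR 0.0454), but passed in 9 of 20 alternatives and in none that left out a WT library or labelled-mutant library 1, 2 or 3. Without those libraries its FDR was from 0.0914 to 0.132. Angpt2 had the largest difference of the list, -0.66 (FDR 0.259), which was -0.36 with the Y-linked covariate and passed only without the filter (FDR 0.0431).

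Markers of the other cells of the ventricle were counted in the same fit. Of 15 cardiomyocyte genes 1 passed, 7 were below 0 and the median was 0.0061. That gene, the cardiac transcription factor Nkx2-5, rose from 96.9 ± 3.66 to 112 ± 2.16 CPM (SD, n = 4 each, log2 fold change 0.21, FDR 0.0194), and passed in 16 of 20 alternatives. It did not pass with the Y-linked covariate (FDR 0.0897) or without WT library 2 (0.0688), WT library 3 (0.0632) or labelled-mutant library 3 (0.0862). Myh6 had the estimate furthest below 0 (-0.19). Immature cardiomyocyte genes had a median of -0.021 with 4 of 6 below 0, and Nppa at -0.17. Nppa was at -0.30 without labelled-mutant library 4, at -0.065 without WT library 4 and at -0.03 with the Y-linked covariate.

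Endothelial genes had a median of -0.12 with 10 of 12 below 0 and none past the test, Erg having the largest estimate (-0.19, FDR 0.0769). Of these 12, 5 stood without overlap between the groups, where 0 of the 4 pericyte members and 6.05% of all genes did. The summed level of the endothelial genes was 1444 to 1486 CPM across the WT group, against 1349.9 to 1446 CPM across the labelled-mutant group. Arterial endothelial genes had a median of -0.082 with 7 of 10 below 0, the one past the test being Cxcr4. Cxcr4, Dll4 and Nrp1 of this list, and Tek and Eng of the endothelial list, are also among the recruitment signals above. The counts and medians of these lists are thus not separate results, and the call of Cxcr4 is the same one. The pericyte and endothelial medians were thus alike in size, and the part of either in the other was not tested.

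Fibroblast genes had a median of -0.085 (7 of 9 below 0, Dpt at -0.24) and epicardial genes of 0.057 (3 of 10 below 0, Krt8 at -0.28). Macrophage genes had 0.064 (2 of 8 below 0, Fcgr1 at 0.19), and 2 Schwann cell genes that could be tested had 0.12. Atrial genes had a median of -0.15, all 6 below 0, with Sln at -0.41. Leaving out single libraries moved Sln from -0.77 (without labelled-mutant library 2) to -0.22 (without WT library 4) and Krt8 to -0.06 (without WT library 2). Fcgr1 ran from -0.019 (without WT library 1) to 0.40 (without WT library 3), and Dpt was -0.11 with the Y-linked covariate. None of these passed the test.

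Genes listed for the elastic artery wall had the lowest median of the cell type lists, -0.30, with all 5 below 0 and none past the test. They were uneven, with Fbln5 at -0.55, Mfap5 at -0.30, and Lox and Emilin1 at -0.05 each. Eln, the elastin gene, was at 967, 779.6, 1456 and 1250.2 CPM across the WT group, against 496, 638, 754 and 961 CPM across the labelled-mutant group. WT libraries 3 and 4 were the highest, as for Myh11, and WT library 2 was below labelled-mutant library 4. Its log2 fold change was -0.64 (interval -1.07 to -0.22, FDR 0.216). It was -0.29 with the Y-linked covariate (FDR 0.663), and it passed in 2 of 20 alternatives, without the filter on low counts (FDR 7.02e-05) and with the replicate block (FDR 0.0313). The summed level of the 5 genes was 1117 to 1864 CPM across the WT group, against 792 to 1352 CPM across the labelled-mutant group. Most of this sum was Eln, with a mean of 1113 of 1491 CPM in WT and 712 of 1044 CPM in labelled-mutant libraries. The part of these genes' source in the Myh11, Rgs5 and Lmod1 differences was not tested.

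**Figure D5:**
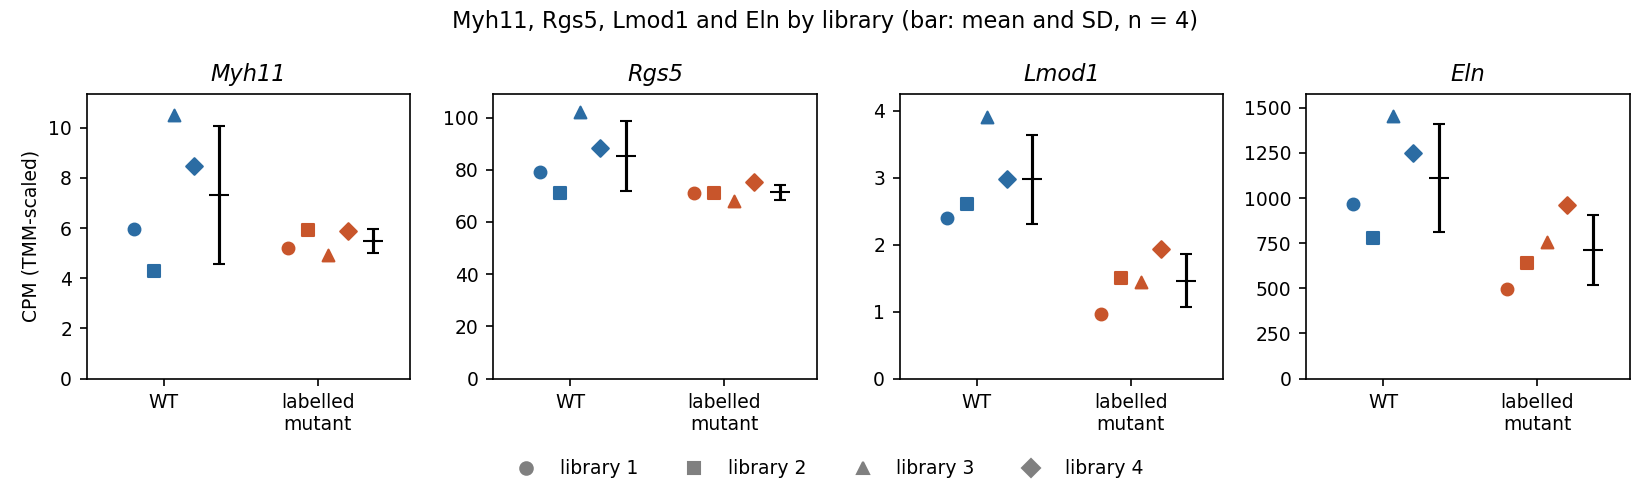
Myh11, Rgs5, Lmod1 and Eln by library, each in CPM, with bars for the group mean and SD (n = 4). WT libraries 3 and 4 are highest in Myh11, Rgs5 and Eln, and only in Lmod1 do the WT and labelled-mutant values not overlap.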

How the data were processed

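Poly(A) RNA, of 1 ventricle per library by the submitters' account, was sequenced as 60-base single reads from a directional kit. The authors deposited 1 table of expected counts per gene, estimated with RSEM 1.3.1 on GRCm38 after trimming with cutadapt, per the submitters' processing notes. RSEM divides reads that match several genes, so its counts need not be whole, and the strand setting is not given in the sources used here. Whether tamoxifen or litters differed is likewise not given. The members and gene lists were chosen with earlier results of these data known.

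Gene names, positions and exonic lengths came from GENCODE M21, which held 53360 of the 53465 identifiers. Expected counts were rounded and tested with edgeR 4.0.16 in R 4.3.3 (filterByExpr, TMM scaling, quasi-likelihood test, two-sided, all 8 libraries, no covariate), with Benjamini-Hochberg FDR over 15388 genes and a threshold of 0.05. Intervals are 95%. Alternatives used limma 3.58.1 and DESeq2 1.42.0. The fit was also run on simulated counts, the outcome of which is not given here, so no result above rests on it. Depth was 16761763 to 24144272 counts a library, and no pair of libraries was a duplicate (chi-square per degree of freedom 2.87 to 14.2).

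Genes named outside the members were Nrg1, those past the threshold in each list, the one with the largest difference in each list, the 5 most like Myh11 and Rgs5, and those sharing exonic bases with a member. Kcnj8, the genes set beside Acta2 and Myh11 per length, the library arrangement and the genes that held it were chosen after their values were seen.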

Additional observations from a re-analysis of the deposited data

Results flagged for a closer look

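Rgs4, a pericyte gene outside the members, was at 2.59 CPM in WT library 1 and at 4.00 to 4.17 CPM in the other 3 WT libraries, a gap that by Dixon's criterion sets that library apart. Among the 52 groups of 4 libraries examined, chance alone gives about 2.6 such gaps.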

How the results depend on the processing

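The members' count past the threshold was 0 in the reported analysis and 1 without a filter on low counts and with DESeq2. All 4 pericyte members were below 0 in all 20 alternative fits, and the medians moved by less than the spread between libraries. Genes called overall numbered 81, against 338 without the filter, 242 with edgeR's likelihood ratio test, 195 with DESeq2, 190 at an FDR of 0.1 and 16 with the Y-linked level as covariate. Leaving out 1 library gave 11 (without labelled-mutant library 3) to 142 (without labelled-mutant library 4), and 14 without WT library 2. The cause was not tested. Signs turned for Pdgfb (0.0055 without WT library 1, 0.021 without WT library 3), Cnn1 (-0.020 without WT library 3, -0.012 without labelled-mutant library 4) and Fcgr1 (-0.019 without WT library 1), where leaving out 1 library gave -0.063 to 0.021 for Pdgfb, -0.020 to 0.056 for Cnn1 and -0.019 to 0.40 for Fcgr1. Across fits Rgs5 ranged from -0.34 to -0.13, Myh11 from -0.60 to -0.10 and Acta2 from 0.086 to 0.15. Summing members with genes that share their exonic bases, an alternative chosen after seeing the data, called none. A replicate block in the model gave 93 calls, which shared 59 genes with the reported 81 and held no member. Cxcr4 no longer passed (FDR 0.0767) and Eln did (-0.65, FDR 0.0313). Deviations of same-numbered libraries correlated at 0.122, 0.0522, 0.0395 and 0.124, and others at -0.0943 to 0.0232, so each library was most like that of its own number, a hint from the data and not the design.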
